A study of Mus musculus with 50 samples.

Results

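The 30 probe identifiers described here were selected on measured values of the air control section. Each had a summed raw count of at least 80 over the 8 air segments and a lower CPM (count per 1000000 of a segment's total) in the CD68+ segment than in the CD45- segment of all 4 air regions. They were 30 of 20238 identifiers in the files. Of the 228 identifiers that reached the count minimum outside a list of named exclusions, 69 had the opposite order in all 4 air regions, and the 198 abundant identifiers that are not members include those 69. The identifiers (RTS numbers) matched no gene name in the files or the reference tables used here, so no gene, role or cell type is given to any of them. Markers of lung cell types could not be looked up for the same reason, and the name "non-immune enriched" rests on the selection rule alone.

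The lung's CD45- cells include the thin alveolar type 1 cells that line the air spaces, the surfactant-making type 2 cells, capillary endothelium and stroma. CD45 marks white blood cells and CD68 is a lysosomal glycoprotein abundant in macrophages, which clear debris from injured alveoli. Surfactant protein C (SP-C) is made by type 2 cells, and ozone is an oxidant gas that injures the lining of the airways and alveoli.

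Probe barcodes were counted with GeoMx spatial profiling, in which ultraviolet light releases the barcodes of bound RNA probes from chosen areas of a stained section. A CD68+ segment and a CD45- segment were captured from each of 24 regions in 4 mouse lung sections, and each section carried 1 study identifier, taken as 1 animal. The wild type air section came from a 12 week old SP-C wild type mouse kept in filtered air and held 4 regions labelled healthy. The wild type ozone section came from a 12 week old SP-C wild type mouse and held 4 injured and 4 peri-injured regions. The young mutant section came from a 12 week old SP-CI73T mutant and the old mutant section from an 80 week old SP-CI73T mutant, each with 3 injured and 3 peri-injured regions. The 3 ozone sections came from mice exposed to 0.8 ppm ozone for 3 h and killed 72 h later. All mice lived in a germ free facility, and no mutant kept in air or old wild type mouse was analysed here. Both wild type sections lay on 1 collection plate and both mutant sections on another, which means that genotype cannot be told apart from plate. CD68+ segments held 20046 to 101982 counts and CD45- segments 32707 to 300720 counts. In segments of many cells, fewer cells of a type and less RNA per cell cannot be told apart.

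In air the members had 80 to 354 summed counts with a median of 108.5, and the ratio of mean CD68+ CPM to mean CD45- CPM ran from 0.331 to 0.896 with a median of 0.512. These values chose the members and are given as description only. RTS0067855 was the most abundant, with 1191, 1076, 1061 and 1315 CPM in the 4 CD45- segments and 1016, 1000.5, 1031 and 799 CPM in the CD68+ segments. RTS0067801 followed at 883 ± 191 CPM in CD45- and 694 ± 89.8 CPM in CD68+ segments (SD, n = 4 regions). The CD45- and CD68+ values of RTS0067855 did not overlap, while those of RTS0067801 did. RTS0064263 had the lowest ratio, with 344, 443, 476 and 367 CPM in CD45- against 121, 119, 41.2 and 258 CPM in CD68+ segments. RTS0070073 was next, with 349 ± 35.1 CPM in CD45- and 132 ± 47.9 CPM in CD68+ segments (SD, n = 4 regions), and its 4 CD68+ segments together held 20 counts. At the edge of the rule, RTS0064440 entered with 80 summed counts and RTS0063765 stayed out with 79.

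In the ozone sections, which the rule did not use, the members as a set again took a larger share of the counts in CD45- than in CD68+ segments, in all 20 regions. In the wild type ozone section the share was 1.35 ± 0.0714% in CD45- and 0.82 ± 0.0692% in CD68+ segments (SD, n = 8 regions). The corresponding shares were 1.18 ± 0.0313% and 0.822 ± 0.11% in the young mutant section (SD, n = 6 regions) and 1.24 ± 0.094% and 0.97 ± 0.103% in the old mutant section (SD, n = 6 regions). The ranges of both segments did not overlap in the wild type ozone and young mutant sections, while in the old mutant section the CD45- minimum of 1.06% lay below the CD68+ maximum of 1.09%. The ratio of the CD68+ to the CD45- share was 0.545 to 0.661 in the wild type ozone section, 0.578 to 0.821 in the young mutant section and 0.635 to 0.882 in the old mutant section. In air, where the order was fixed by the choice of members, it was 0.489 to 0.626. Each section is 1 animal, so the differences between sections were not tested. The smallest gap was found in region 11, a peri-injured one of the old mutant, between 1.06% (95% Wilson interval 0.994 to 1.13) in CD45- and 0.935% (0.866 to 1.01) in CD68+, and these intervals, which cover counting error only, overlapped, as did those of its peri-injured region 7.

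**Figure D1:**
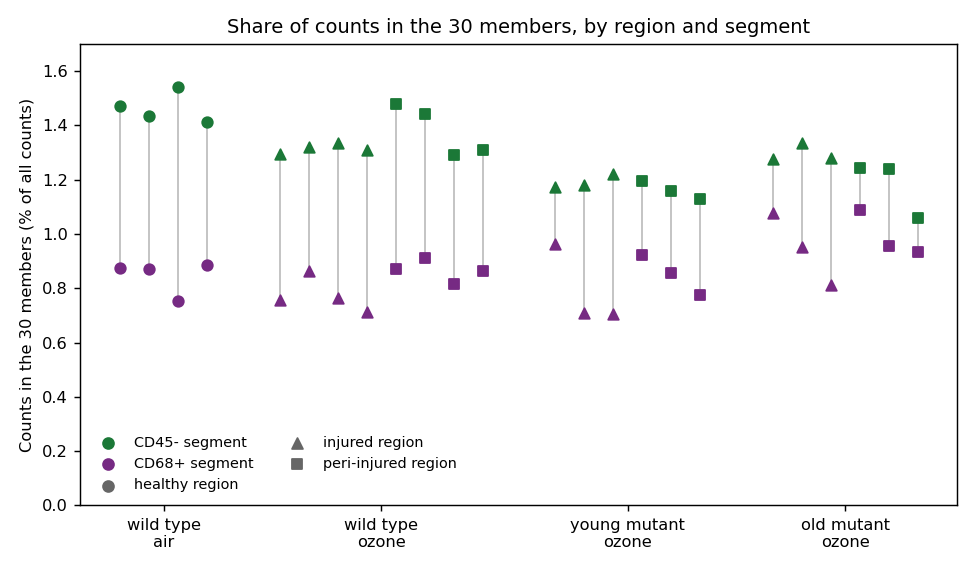
Share of all counts that fell on the 30 members (y axis, percent), for the CD45- segment (green) and the CD68+ segment (purple) of each region (x axis, grouped by section), with a grey line joining both segments of a region. The green point lies above the purple point in all 24 regions, and the gap is narrowest in the old mutant section, where the CD68+ share reached 1.09%.

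The segment difference was tested on counts summed over the regions of each ozone section, with the section as a block. Of the 30 members, all of which passed the filter on low counts, 13 were lower and 0 were higher in CD68+ segments (edgeR quasi-likelihood test, Benjamini-Hochberg adjusted p under 0.05 over 17651 identifiers). Over all identifiers tested, 0.686% were called lower and 1.43% higher. Among the 198 other abundant identifiers 3 were called lower and 22 higher. Of these 22, 20 belong to the 69 with the opposite order in air. That part of the contrast with the members follows from the choice on air values. The fitted log2 difference, CD68+ minus CD45-, was below 0 for 28 of the 30 members, with a median of -0.62 beside 0.00 for all identifiers tested. An unadjusted edgeR p under 0.05 was found for 20 members, beside 1821 of all 17651 identifiers and 48 of the 198 other abundant ones. The 13 members called spanned 1.64-fold to 2.22-fold lower levels, and all 13 were lower in each of the 3 sections. By section, 29 of 30 members were lower in CD68+ in the wild type ozone section with a median log2 difference of -0.84, 27 in the young mutant section with -0.62, and 26 in the old mutant section with -0.35. The call rests on the wild type ozone section and on the test. Without that section 0 members were called although 26 of 30 stayed below 0 and 15 had an unadjusted p under 0.05, without the young mutant section 7 were called, and DESeq2 called 2, RTS0063327 and RTS0065864, with 17 at an unadjusted p under 0.05. With no section block 0 members were called and 13 had an unadjusted p under 0.05. How many of all identifiers these alternative fits called is not given here, so a loss of calls is not read as particular to the members.

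RTS0065864 showed the largest fitted decrease. Its CPM, as lowest, median and highest region, were 319, 395 and 507 in CD45- and 101, 127 and 205 in CD68+ segments of the wild type ozone section. The young mutant section gave 161, 291 and 363 against 23.7, 82.9 and 153, and the old mutant section gave 284, 353 and 451 against 155, 239.8 and 311. All CD68+ segments lay below all CD45- segments in the wild type ozone and young mutant sections, while the ranges overlapped in the old mutant section. RTS0065864 was lower in CD68+ in all 20 ozone regions, and the fit gave -1.15 on the log2 scale (SE 0.21, edgeR adjusted p = 0.000602). The young mutant CD68+ value rests on 16 counts over 6 segments.

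RTS0064219 had 97, 259 and 335 CPM in CD45- and 40.8, 98.4 and 136 CPM in CD68+ segments of the wild type ozone section, again as lowest, median and highest, and these ranges overlapped. In the young mutant section the values were 166, 253 and 353 against 47.5, 91.6 and 153 CPM, without overlap. The old mutant section gave 163, 204 and 330.0 against 38.9, 164 and 198 CPM, with overlap. The lowest CD68+ values rest on few counts. For scale, 3 counts make 149 CPM in young mutant region 2 and 117 CPM in old mutant region 12. RTS0064219 was lower in CD68+ in 18 of 20 regions, and the fit gave -1.07 on the log2 scale (SE 0.21, edgeR adjusted p = 0.00196). RTS0063327 was the other member lower in CD68+ in all 20 regions. Its mean level in the young mutant section was 347 ± 46.6 CPM in CD45- and 119 ± 71.1 CPM in CD68+ segments (SD, n = 6 regions), and its fitted log2 difference was -1.05 (SE 0.18, edgeR adjusted p = 0.000429). DESeq2 gave an adjusted p of 0.0765 for RTS0064219.

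The members differed among themselves in how often the air order held. Counted by region, a member was lower in CD68+ in 12 to 20 of the 20 ozone regions with a median of 17, and 25 of 30 members were lower in at least 15. The 198 other abundant identifiers ranged from 0 to 19 regions with a median of 9. They include the 69 with the opposite order in air, which had a median of 5. RTS0065876 and RTS0067622 were lower in the fewest, 12 regions each. RTS0065876 had medians of 544 and 470.4 CPM in the CD45- and CD68+ segments of the wild type ozone section, 482 and 573 CPM in the young mutant and 517 and 601 CPM for the old mutant, and its ranges overlapped in all 3. Its fitted log2 difference was 0.03 (SE 0.16, edgeR adjusted p = 0.983). RTS0067622 stood at 257 ± 48.8 CPM in CD45- and 251 ± 75.9 CPM in CD68+ segments of the wild type ozone section (SD, n = 8 regions), after 444 ± 96.8 and 189 ± 86.9 CPM in air (SD, n = 4 regions). The 7 members with at least 160 air counts had a median log2 difference of -0.13, against -0.62 for all 30. Of these 7, 2 were called, RTS0065956 and RTS0068682.

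**Figure D2:**
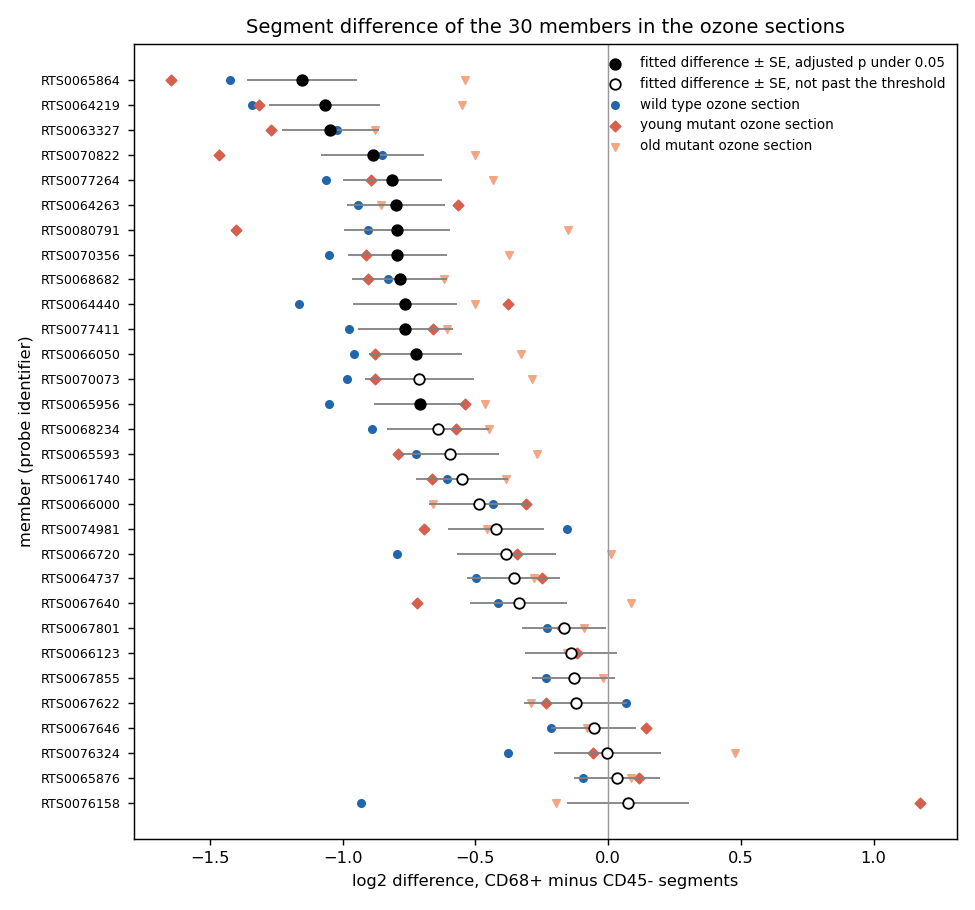
Log2 difference between CD68+ and CD45- segments (x axis) for each member (y axis), as the fitted value over the 3 ozone sections with its SE (black outlines, filled where the edgeR adjusted p is under 0.05) and as the value of each section (coloured markers). Filled points lie at the top, from -1.15 to -0.71, with the open point of RTS0070073 among them, and RTS0076158 at the bottom has its young mutant value at 1.17 while the wild type ozone value is at -0.93.

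RTS0076158 was the one member of the 30 with a higher CPM in CD68+ than in CD45- in every injured region of a section, the young mutant section. In CD68+ segments of the young mutant section it had 2202, 1783 and 2113 CPM in the injured regions and 299, 306 and 367 CPM in the peri-injured regions. In CD45- segments of the same section it had 1016, 893 and 658 CPM in injured and 427, 463 and 454 CPM in peri-injured regions. The 3 injured CD68+ segments were the highest of all 48 segments, and in each of these regions CD68+ exceeded CD45-. In the old mutant section RTS0076158 had 735, 699 and 466 CPM in injured and 422, 352 and 322 CPM in peri-injured CD68+ segments, also without overlap. In the wild type ozone section the order was not repeated, with 118, 76.9, 76.5 and 111 CPM in injured and 99.9, 90.99, 245 and 313 CPM in peri-injured CD68+ segments. In air its CD68+ segments had 189.5, 381, 454 and 489.9 CPM. The fitted segment difference over the 3 ozone sections was 0.08 (SE 0.23, edgeR adjusted p = 0.966), and without the young mutant section it was -0.55 (edgeR adjusted p = 0.369).

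The next comparison, injured against peri-injured regions within each section, used values that the rule did not. In CD45- segments 0 of 30 members were called higher and 0 lower (edgeR, 16703 identifiers, of which 0.204% were called higher and 0.144% lower). Of the members, 18 were higher and 12 lower in injured regions with a median log2 difference of 0.05, beside -0.00 over all identifiers. An unadjusted edgeR p under 0.05 was found for 4 of 30 members, beside 1037 of all 16703 identifiers and 73 of the 198 other abundant ones. DESeq2 called 0 members and gave 0 an unadjusted p under 0.05. Among the 198 other abundant identifiers 11 were called higher and 0 lower, with a median of 0.19. Of these 11, 7 belong to the 69 with the opposite order in air. RTS0065956 had the smallest p of the higher members, at 0.38 on the log2 scale (SE 0.14, edgeR adjusted p = 0.523). Its injured CD45- segments of the young mutant section had 307, 532 and 336 CPM and the peri-injured ones 296, 206 and 142 CPM, without overlap, while the old mutant values of 994, 752 and 678 against 1221, 757 and 477 CPM overlapped. RTS0066050 had the smallest p of the lower members, with -0.32 (SE 0.14, edgeR adjusted p = 0.691). Its young mutant CD45- values were 492, 432 and 833 CPM in injured and 883, 816 and 850.5 CPM in peri-injured regions, which overlapped. By section the median of the members was -0.10 in wild type ozone, 0.06 in the young mutant and 0.17 in the old mutant section. Without the wild type ozone section 2 members were called higher, RTS0064263 and RTS0076158, both named after their values were seen.

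In CD68+ segments 0 members were called higher and 0 lower (edgeR, 3176 identifiers, of which 0.283% were called higher and 0.252% lower). The median log2 difference of the members was -0.17, beside 0.01 over all identifiers, and 21 of 30 were lower in injured regions. An unadjusted edgeR p under 0.05 was found for 4 of 30 members, beside 227 of all 3176 identifiers and 34 of the 195 other abundant ones tested. DESeq2 called 0 members and gave 0 an unadjusted p under 0.05. RTS0076158 had the smallest p of the members, at 1.09 on the log2 scale (SE 0.33, edgeR adjusted p = 0.184). Its log2 differences by section were 2.73 in the young mutant, 0.88 in the old mutant and -0.81 in the wild type ozone section. Leaving out 1 section moved its edgeR adjusted p from 0.00734 (without wild type ozone) to 0.994 (without the old mutant), and without the young mutant section the log2 difference was 0.25. Without wild type ozone region 3 the edgeR adjusted p was 0.00994, and without young mutant region 1, also injured, it was 0.0453. With no filter on low counts it was 0.00249, and with DESeq2 the log2 difference was 0.92 and not called.

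RTS0065593 had the smallest p among the lower members, with -0.61 (SE 0.24, edgeR adjusted p = 0.53). In CD68+ segments of the young mutant section it had 150.1, 49.5 and 71.2 CPM in injured and 299, 229.7 and 209.8 CPM in peri-injured regions. In the old mutant section the values were 226, 129 and 38.9 against 311, 308 and 264 CPM, and neither section's groups overlapped. In the wild type ozone section 236, 211, 217 and 126 CPM in injured regions overlapped 214, 227, 306 and 229 CPM in peri-injured regions. The injured values of RTS0065593 rest on 1 to 9 counts per segment in the young mutant and 1 to 23 in the old mutant.

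The difference of the injury differences between segments was tested in 1 fit over 12 sums. No member was called in either direction (edgeR, 9319 identifiers, of which 0.0429% were called higher and 0.0215% lower). An unadjusted edgeR p under 0.05 was found for 0 members, beside 427 of all 9319 identifiers and 14 of the 198 other abundant ones. DESeq2 called 0 members and gave 0 an unadjusted p under 0.05. Among the members, the smallest p on the higher side was that of RTS0076158, with 0.83 (SE 0.43, edgeR adjusted p = 0.99), and on the lower side that of RTS0066000, with -0.65 (SE 0.33, edgeR adjusted p = 0.99). RTS0066000 had 280.5, 304 and 201 CPM in injured and 216, 169 and 170.1 CPM in peri-injured CD45- segments of the young mutant section. Its CD68+ segments there had 150.1, 49.5 and 119 CPM in injured and 249, 229.7 and 236 CPM in peri-injured regions, lower in injured regions without overlap, while the CD45- values overlapped. The CD68+ values rest on few counts, since these segments held 20046 to 59955 counts in all. In injured region 2, with 20187, a level of 149 CPM is 3 counts.

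**Figure D3:**
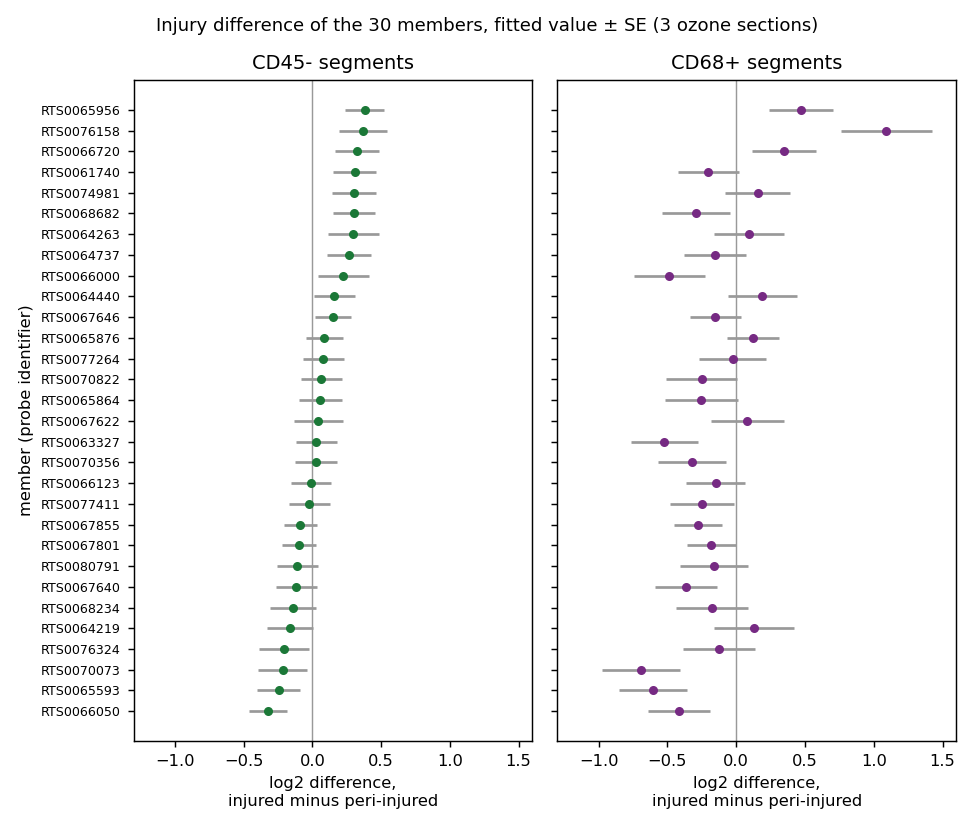
Log2 difference between injured and peri-injured regions (x axis) for each member (y axis), fitted over the 3 ozone sections with its SE, in CD45- segments (left, green) and CD68+ segments (right, purple). No member passed the edgeR threshold, the CD45- values stay between -0.32 and 0.38, and RTS0076158 is the right-most CD68+ point at 1.09.

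Sections were then set side by side, with 1 animal on each side and therefore no test. A member was counted when its mean log2 CPM over regions differed by at least 1, that is 2-fold, and no region of one section overlapped the other, on TMM-scaled library sizes. Wild type ozone against wild type air comes first, in which the air values also chose the members, so nothing is read from its counts. Among CD45- segments 1 member was higher and 4 lower, where 2.36% of 1819 identifiers were counted higher and 1.21% lower, and the median of the members was -0.37 beside 0.06. RTS0064440 had 265, 337, 256 and 275 CPM in air and 658, 753 and 891 CPM (lowest, median, highest) in ozone CD45- segments, a log2 difference of 1.27. RTS0076158 had 820.1, 591, 859.9 and 703 CPM in air and 216, 267 and 346 CPM in ozone, a log2 difference of -1.44. RTS0068682 had 529, 759, 732 and 459 CPM in air and 119, 236 and 359 CPM in ozone, a log2 difference of -1.38. The other lower members were RTS0064263 with -1.10 and RTS0070073 with -1.02. In CD68+ segments 24 members passed the filter and none was counted, where 3.98% of 477 identifiers were counted higher and 1.68% lower.

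Young mutant against wild type ozone shares the wild type ozone segments with the comparison above. In CD45- segments 4 members were higher and 4 lower, where 0.719% of 2502 identifiers were counted higher and 1.12% lower, and the median of the members was 0.09. Counted on the totals of the files instead, 1 was higher and 4 lower. RTS0076158 had 427, 561 and 1016 CPM in the young mutant against 216, 267 and 346 CPM in the wild type ozone section, a log2 difference of 1.19. RTS0068682 had 391, 497 and 564 CPM against 119, 236 and 359 CPM, a difference of 1.08. RTS0064440 had 107, 152 and 198 CPM in the young mutant against 658, 753 and 891 CPM, 4.35-fold lower. RTS0065956 had 142, 302 and 532 CPM against 980.1, 1172 and 1642 CPM, 3.83-fold lower. The other counted members were RTS0061740 with a log2 difference of 1.07, RTS0064263 with 1.04, RTS0066123 with -1.28 and RTS0077264 with -1.48.

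In CD68+ segments of the same pair of sections 20 members passed the filter, 1 was counted higher and 1 lower, where 1.79% of 392 identifiers were counted higher and 2.55% lower. RTS0076158 was the higher one, with a log2 difference of 2.44, but its CPM on file totals overlapped, since the young mutant minimum of 299 lay below the wild type ozone maximum of 313, and on file totals it was not counted. RTS0066123 was the lower one, with 149, 195 and 237 CPM (lowest, median, highest) in the young mutant against 347, 518 and 614 CPM in wild type ozone, a log2 difference of -1.13 and no overlap. The same member had 161, 222 and 299 CPM against 503, 593 and 657 CPM in CD45- segments, where it was also lower, by 1.28 on the log2 scale. Genotype and collection plate change together here.

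Old mutant against young mutant, both on 1 plate, gave no counted member in either segment. In CD45- segments 30 members had log2 differences of -0.66 to 1.29, where 0.0737% of 1356 identifiers were counted higher and 0% lower. In CD68+ segments 13 members passed the filter, with differences of -0.80 to 1.32, where 0% of 287 identifiers were counted higher and 1.05% lower. RTS0065956, singled out after its values were seen, was highest of the members in both, at 1.29 and 1.32. Its CD45- segments had 477, 754 and 1221 CPM in the old mutant against 142, 302 and 532 CPM in the young mutant, which overlapped in the range of 477 to 532 CPM. RTS0064440 was at 279 ± 51.7 CPM in the old mutant and 156 ± 36.2 CPM in the young mutant CD45- segments (SD, n = 6 regions).

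**Figure D4:**
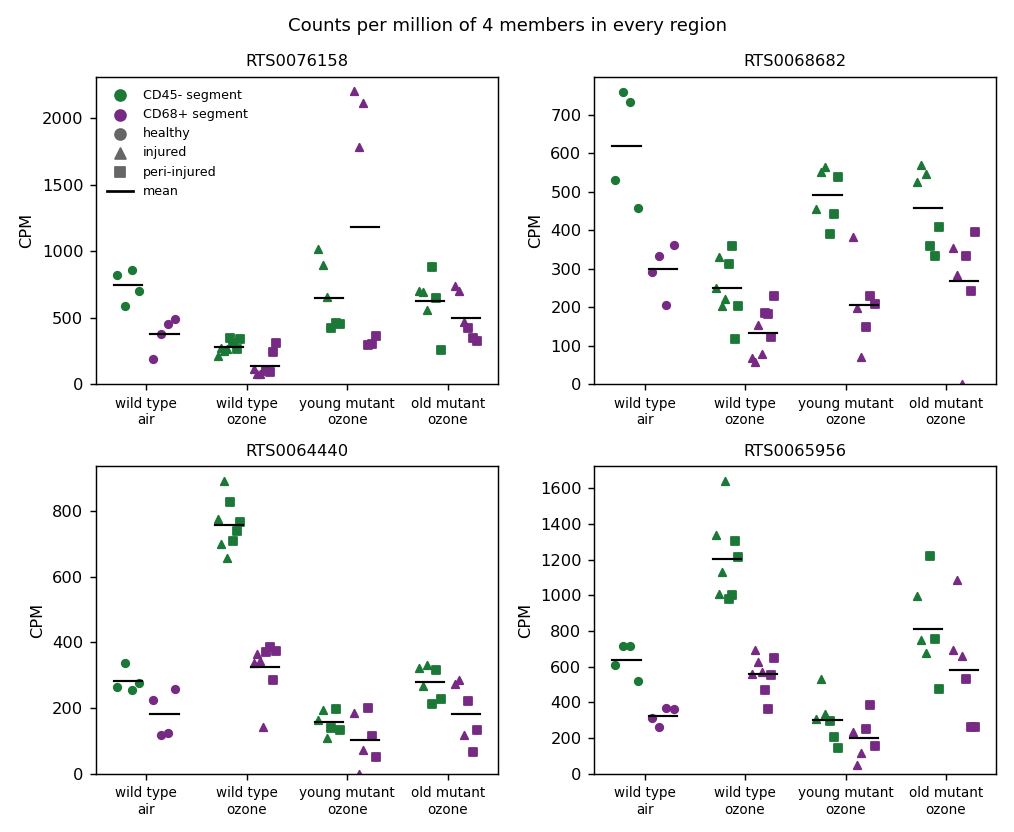
CPM on file totals (y axis) of 4 members in every region, by section (x axis), for CD45- segments (green) and CD68+ segments (purple), with black lines at section means and shapes for healthy, injured and peri-injured regions. RTS0076158 reaches 2202 CPM in injured CD68+ segments of the young mutant section, and RTS0064440 and RTS0065956 have their highest CD45- means, 758 and 1202 CPM, in the wild type ozone section.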

How the data were processed

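The authors deposited raw counts, 1 per probe barcode and segment, made with the GeoMx NGS Pipeline, version 2.3.4, per the file headers. The labels' protocols name paraffin sections of saline-perfused lungs, staining for CD45, CD68 and DNA, and the NanoString Mouse Whole Transcriptome Kit, version 1.0. Per the submitters' processing notes the genome build was mm10, and no coordinate is used. The criteria for injured, peri-injured and healthy regions are not given in the sources used here. Air samples carry an ozone treatment label but are air by title and time point, and were grouped by title. The genotype of the old mouse comes from its sample labels, since the design text names none.

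Barcodes that a file does not list were set to 0. Of 20238 identifiers, 20175 lie in 1 range of numbers with no gap over 1000 and were analysed, and the other 63 stayed out of the library sizes of the fits. The members, lists and tests were chosen with earlier results of these data known. Named exclusions removed 5 identifiers that met the selection rule.

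Each fit used sums of counts: 6 by section and segment, 6 by section and region type in 1 segment, or 12 by section, region type and segment. Sums were filtered with filterByExpr (minimum count 10), scaled with TMM and compared by the two-sided quasi-likelihood test (glmQLFit, glmQLFTest) of edgeR 4.0.16 in R 4.3.3, with Benjamini-Hochberg adjustment. The SE is the fitted log2 difference over the square root of F. Sections set side by side were described by log2 CPM with a prior count of 2 on TMM library sizes. CPM levels in the text use file totals, and their SD is over regions that share an animal and section. Alternatives were DESeq2 1.42.0, upper quartile factors, no filter, no block, regions as libraries, other member rules, a prior count of 10, leaving out RTS0076055, each section and each region, and file totals for sections side by side, which was chosen after seeing the data. The edgeR code was run on simulated counts with no section effect and with changes larger than those called among the members. That run does not show how well changes of the sizes seen here are recovered.

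Segments of a section come from the same animal, so the section block of the segment fit holds that pairing. The fit over 12 sums used section within segment as its block. It therefore treated the CD45- and CD68+ sums of a section as independent. The CD45- and CD68+ deviations from their group means were correlated over 228 abundant identifiers. The median was 0.0799 within a region and -0.0324 between regions. A group is a section, region type and segment, so its mean removes the injury difference of a section. The correlation therefore cannot show whether both segments of a section share that difference, and the independence was not tested. No 2 segments of a group agreed within sampling noise over identifiers with at least 10 counts in the pair. Of 60 pairs, the lowest chi-square per degree of freedom was 1.13, over 12076 degrees of freedom, and the highest p of any pair was 1.26e-07. Intervals cover counting error only.

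For each comparison up to 2 members a direction were named, the largest changes among those called with 1 direction in all sections or counted without overlap, and where none was called the member with the smallest p in each direction. In addition, the 2 most abundant in air, the 2 with the lowest air ratio, the 2 lower in CD68+ in most and in fewest ozone regions, and the identifiers just inside and outside the count minimum were named. Ties went to the larger air count.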

Additional observations from a re-analysis of the deposited data

Results flagged for a closer look

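RTS0076158 moved in opposite directions in injured regions of 2 sections, a difference that was not tested. Its CD68+ level exceeded the CD45- level in all 3 injured regions of the young mutant section, by 1177 ± 283 CPM (SD, n = 3 regions). In wild type ozone it was lower in all 4 injured regions, where CD68+ minus CD45- was -155 ± 41.2 CPM (SD, n = 4 regions). In peri-injured regions RTS0066000 was higher in CD68+ in the young mutant section, by 53.4 ± 17.3 CPM (SD, n = 3 regions), and lower in every region of the wild type ozone section, at -62.9 ± 42.2 CPM (SD, n = 4 regions), and of the old mutant section, at -61.2 ± 31.0 CPM (SD, n = 3 regions). RTS0067855 was higher in CD68+ in all 3 peri-injured regions of the old mutant section, by 39.8 ± 22.0 CPM, and lower in all 4 of the wild type ozone section, at -188 ± 115 CPM. The peri-injured CD68+ segments held 20046, 26123 and 38136 counts in the young mutant section and 45070, 45468 and 68226 in the old mutant section. In these segments the gaps of RTS0066000 and RTS0067855 amount to a few counts or fewer. The differences of both members between sections were not tested.

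Single segments stood apart from the others of their group in 8 of 108 groups of 4 regions examined for the share and the named members, where chance gives about 1 in 20. In air, RTS0065876 reached 978 CPM in 1 CD45- segment, RTS0067855 fell to 799 CPM in 1 CD68+ segment, and the members' share was 0.755% in 1 CD68+ segment. In CD68+ segments of the wild type ozone section, RTS0064440 was at 142 CPM in 1 injured region and at 286 CPM in 1 peri-injured region. In peri-injured CD68+ segments there, RTS0065593 stood at 306 CPM and RTS0070073 at 188 CPM in 1 region each. RTS0065864 was at 507 CPM in 1 peri-injured CD45- segment. The 4 CD68+ values of the wild type ozone section rest on 9 to 15 counts each.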

How the results depend on the processing

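The 13 members called lower in CD68+ segments became 2 with DESeq2, 0 with no replicate block, 26 with regions as libraries and a replicate block of the region (its p-values are too small, since regions share an animal), 2 with a member minimum of 160 counts and 31 of 99 with a minimum of 40. Leaving out 1 section or region gave 0 to 15, with 0 only without the wild type ozone section. The median log2 difference of the members, -0.62, was -0.13 with a minimum of 160, -0.35 with TMM library sizes in the selection rule, which chose 46 identifiers including all 30, and -0.91 with the replicate block of the region, where the median over all identifiers was -0.23. Leaving out 1 section or region gave -0.76 to -0.52. The segment difference of RTS0076158 changed sign with the replicate block of the region (-0.41, edgeR adjusted p = 0.0355), without the young mutant section (-0.55), without its injured region 1 (-0.03) or 3 (-0.02), and ranged from -0.55 to 0.50 over these omissions. For injury, members called higher numbered 0 to 2 in CD45- and 0 to 1 in CD68+ segments when 1 section or region was left out. They numbered 2 in CD45- with a minimum of 40 and 1 in CD68+ with no filter. For wild type ozone against air the 5 members counted in CD45- became 3 with a prior count of 10 and 3 to 5 with 1 region left out (3 without air region 10), and the 0 in CD68+ became 0 to 2. For young mutant against wild type ozone the 8 in CD45- became 5 with a prior count of 10, 5 with no filter and 5 with file totals. The 2 in CD68+ became 1 with a prior count of 10, 1 with upper quartile library sizes, 1 with file totals, 4 with no filter and 1 to 4 with 1 region left out. For old against young mutant the 0 in either segment became 0 to 1 with 1 region left out, and 1 in CD68+ with no filter. The causes of these shifts were not tested. The share called over all identifiers under each alternative is not given here, so the shifts are not read as particular to the members. Of 1440 member values 5 were 0, all in CD68+ segments, which allows levels of up to 47.4 to 149 CPM there.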

Other observations

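Levels of the members varied between regions of a section by more than counting alone in part of the sections. Injured and peri-injured regions were pooled here, so a difference between them counts as variation between regions. The air section held healthy regions only. The chi-square of the counts over its degrees of freedom, which counting error alone holds near 1, had a median of 0.556 over the members in air CD45- segments and 0.488 in air CD68+ segments, where the rule had chosen them. It was 1.54 in CD45- and 1.28 in CD68+ segments of the wild type ozone section, 2.04 and 1.43 in the young mutant section, and 1.39 and 1.04 in the old mutant section. RTS0076158 had the highest values of the young mutant section, 16.3 in CD45- and 23.1 in CD68+ segments. RTS0065956 had the highest values of the old mutant section, 6.64 and 8.08. The no template controls held 4 and 229 counts in all, of which 0 and 2 fell on members.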
